A study of Rattus norvegicus with 9 samples.

Results

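The tumor necrosis factor (TNF) superfamily was examined at the mRNA level in the rat spinal cord after contusion injury, with and without electrical stimulation. Members were the protein-coding genes whose symbol is Tnf or begins with Tnfsf or Tnfrsf and a number, together with 10 members named differently, namely Lta, Ltb, Cd40, Cd40lg, Cd70, Fas, Faslg, Eda, Edar and Eda2r. This gave 39 genes, 18 ligands and 21 receptors, of the 30507 rows of the count table, of which 22777 had a count. Bulk RNA-seq was performed on the T9-T11 spinal cord segments of female, wild-type Sprague-Dawley rats that were 8 weeks old when obtained, with 3 rats in each of 3 groups, at 35 days post-injury (dpi). Rats in the Sham group had a T10 laminectomy without a contusion, although the sample labels give them as untreated. Rats in the SCI group had the T10 contusion and carried a plug on the neck without an electrode. Rats in the SCI + SCS group had the same contusion and an epidural electrode with its contacts at T11-T12, which delivered high-frequency stimulation (10 kHz, 0.12 mA) for 2 h daily from 1 dpi. An injured group with an electrode but no current was not sequenced, so that stimulation and the electrode itself cannot be told apart here.

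Ligands of the family are mostly trimeric, membrane-anchored proteins, several of which are released by shedding, and each one clusters receptors on the surface of a neighboring cell. Receptors without a death domain recruit TRAF adaptor proteins, which lead to NF-κB and MAP kinase signaling, whereas receptors with a death domain can also assemble complexes that activate caspase-8 or the necroptosis kinases. In the injured spinal cord, TNF is known as an early cytokine of microglia and infiltrating macrophages, and other members act mainly in lymphocyte co-stimulation, B cell survival, bone remodeling and tissue repair. Soluble or truncated receptors, such as osteoprotegerin, act as decoys that hold a ligand away from its signaling receptor.

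The 9 libraries held 62844376 to 88358570 counts, at which 3 counts correspond to 0.0340 to 0.0477 CPM, counts scaled to a library total of 1e+06. Levels in CPM are further scaled by trimmed mean of M-values (TMM) factors and are given in the order of replicates 1 to 3. Some marker lists differed widely between the groups and others less. Summed over each list, macrophage markers were at 77.8 to 338 CPM in Sham, 2099 to 3326 CPM in SCI and 1549 to 1614 CPM in SCI + SCS, T and NK cell markers at 3.40 to 4.64 CPM, 27.6 to 30.5 CPM and 9.69 to 17.8 CPM, fibroblast markers at 487 to 2178 CPM, 3771 to 5909 CPM and 2333 to 3948 CPM, and neuron markers at 4718 to 10507 CPM, 676 to 2383 CPM and 2147 to 3650 CPM, respectively. Skeletal muscle markers reached 175 to 4962 CPM in SCI against 197 to 285 CPM in Sham and 188 to 246 CPM in SCI + SCS, with SCI replicate 1 the highest. SCI replicate 3, at 1571 CPM, also stood above all Sham and SCI + SCS libraries. In Sham, SCI and SCI + SCS, microglia markers were at 372 to 533 CPM, 730 to 1088 CPM and 812 to 1038 CPM. Astrocyte markers were at 6863 to 11694 CPM, 8315 to 12615 CPM and 12385 to 15736 CPM, and endothelial markers at 290 to 314 CPM, 366 to 387 CPM and 328 to 377 CPM. A sum weights the abundant genes of a list most. Over the single genes tested, the median log2 fold change in SCI vs. Sham was 0.52 for microglia, -0.53 for astrocyte and -0.06 for endothelial markers. In bulk tissue, more cells of a type and more RNA per cell cannot be told apart, and the part of these shifts in the results below was not tested.

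Per gene length, the family was carried in the uninjured cord by a few members. In FPKM, the authors' unit that divides counts by gene length and library total, 7 of the 39 members averaged at least 5 in the Sham group, and 28 averaged under 1. The most abundant were Tnfrsf21, the gene of death receptor 6, at 17.97 ± 2.68 FPKM (SD, n = 3), Tnfsf12, the gene of the cytokine TWEAK, at 13.7 ± 2.21 FPKM, and Tnfrsf1a, the gene of TNF receptor 1, at 10.03 ± 3.05 FPKM. These were followed by Tnfrsf11a, the gene of the receptor RANK, at 9.12 ± 1.22 FPKM, and Tnfsf13, the gene of the cytokine APRIL, at 8.09 ± 2.64 FPKM. The Sham libraries of each of these genes overlapped those of the next in this order, so that neighbors in it were not resolved. In the SCI group, the highest levels were those of Tnfsf12 at 36.2 ± 3.56 FPKM and Tnfrsf1a at 33.3 ± 6.34 FPKM, and 19 members averaged under 1 FPKM. At the other end, Cd40lg, Lta, Tnfrsf13b, Tnfsf8, Tnfsf15 and Eda2r averaged under 0.1 FPKM in every group.

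**Figure D1:**
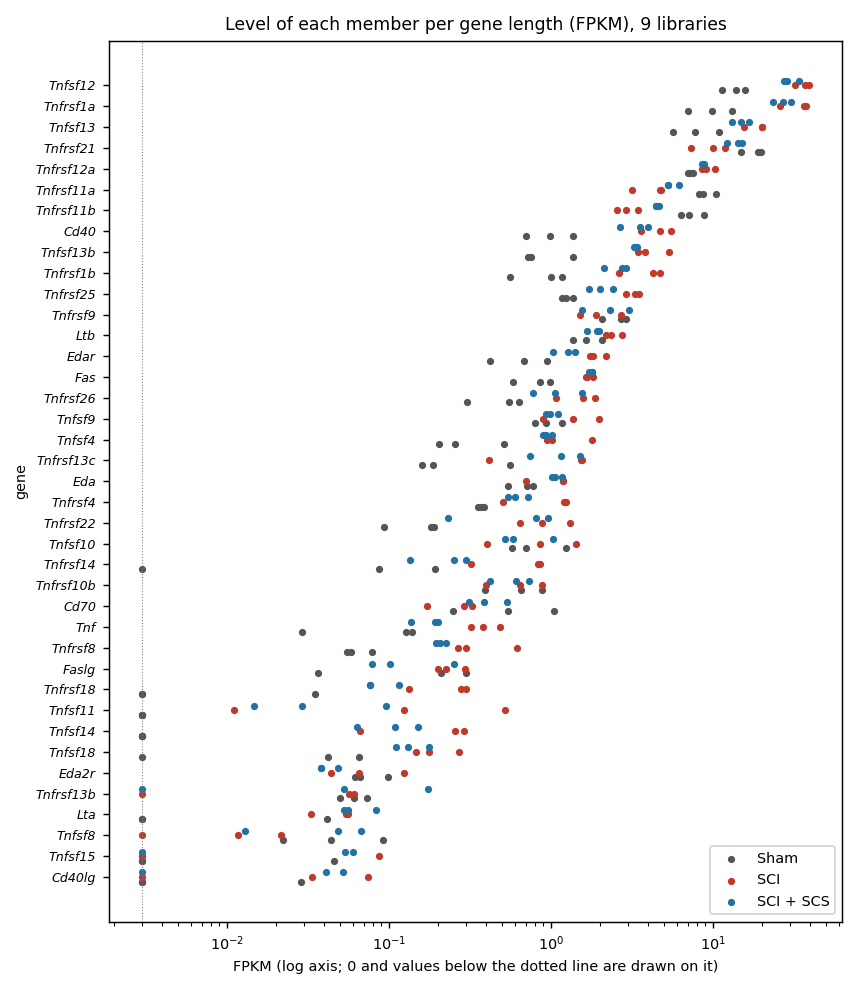
Level per gene length of each of the 39 members in FPKM on a log axis, ordered by the highest group mean, with 1 point per library (gray, Sham; red, SCI; blue, SCI + SCS). Tnfsf12 and Tnfrsf1a stand at the top in the injured groups, and most members lie under 1 FPKM in Sham.

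Compared with the Sham group, most of the tested members were higher in the SCI group. A differentially expressed gene (DEG) had an adjusted p under 0.05 and an absolute log2 fold change (log2FC) over 1 in the quasi-likelihood test of edgeR, with p-values adjusted by the Benjamini-Hochberg procedure over all 17822 genes tested. Of the 32 members with enough counts to be tested, 16 were DEGs higher in SCI, where 13.4% of all genes tested were, and 2 were DEGs lower in SCI, where 13.6% were. Without the fold change threshold the counts were 17 members higher, against 24.3% of all genes, and 3 lower, against 25%. The increases comprised 5 of 12 tested ligands and 12 of 20 tested receptors, and the 3 decreases were all receptors. The median log2FC was 1.38 over the 32 members and 0.02 over all genes tested. In 20 of the 32 members all 3 SCI libraries stood above all 3 Sham libraries, beside a share of 32.5% of all genes tested. In 3 of the 32 they stood below, beside a share of 31.1%. The other 7 members, namely Cd40lg, Lta, Tnfrsf13b, Tnfsf8, Tnfsf11, Tnfsf14 and Tnfsf15, had too few counts for the test, so that the median does not cover them. The filter asks for enough counts in only as many libraries as 1 group holds, so that members high in SCI alone can enter. With at least 10 counts in every library instead, 26 members were tested, of which 14 were DEGs higher and 2 were DEGs lower. The share of all genes under that filter was not computed. When each library was left out in turn, 14 of the 20 members that passed still passed every time, and the other 6 are named below where they are described. DESeq2 was fitted on every gene with a count in these libraries. There, 22 of the 39 members had an adjusted p under 0.05 and were higher, against 22.2% of all genes, and 3 were lower, against 22.2%. The 5 members that passed in DESeq2 alone were Tnfrsf13c, Tnfrsf14, Tnfsf18, Tnfsf11 and Tnfsf14. Without SCI replicate 1, the library with the most muscle mRNA, 14 members were DEGs higher and 2 were DEGs lower. Without SCI replicate 3, the library with the next most, the counts were 16 and 2. The shares of all genes in these fits were not computed, and no fit left out both libraries.

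Between the SCI + SCS and SCI groups, 0 of 34 tested members passed the adjusted threshold in edgeR's test in either direction. Over all 17663 genes, 1 was a DEG higher (0.00566%) and 0 were DEGs lower (0%). At an unadjusted p under 0.05 in edgeR's test, 10 of the 34 members were lower in SCI + SCS, beside a share of 10.9% of all genes. Another 2 of the 34 were higher, beside a share of 13.3%. With DESeq2, 6 members had an adjusted p under 0.05, among which Tnfrsf14 was the only one with an absolute log2FC over 1. DESeq2 gave no adjusted p here for Cd40lg, Eda2r, Lta, Tnfrsf13b, Tnfsf8, Tnfsf14 and Tnfsf15. Genes without an adjusted p count as not passing in the DESeq2 shares. In that test 5.16% of all genes had an adjusted p under 0.05 and were lower and 6.6% were higher, and with the fold change threshold 1.6% were lower and 1.89% higher. The median log2FC was -0.43 over the 34 members and -0.01 over all genes, with 27 members below 0 and 7 above. In 14 of the 34 members all SCI + SCS libraries stood below all SCI libraries, beside a share of 13.9% of all genes. In 2 of the 34 they stood above, beside a share of 15.6%. This comparison and the one with Sham share the 3 SCI libraries, so that a high or low SCI library moves both log2FC values of a gene in opposite directions. The 3 values of each member are therefore given side by side and were not correlated.

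Compared with Sham, the SCI + SCS group still had 10 of 33 tested members as DEGs higher, where 6.28% of 17640 genes were, and 0 as DEGs lower, where 5.44% were. The DEGs were Tnfrsf22, Tnfrsf13c, Tnfsf13b, Cd40, Tnfrsf8, Tnfsf4, Tnfrsf1b, Tnfrsf1a, Fas and Tnfsf12. Without the fold change threshold, 13 members were higher and 2 were lower, against 16.2% of all genes in each direction. The median log2FC was 0.83 over the members and 0.01 over all genes. With DESeq2, 17 members had an adjusted p under 0.05 and were higher, against 16.1% of all genes, and 3 were lower, against 17%. Those that passed in DESeq2 alone were Edar, Tnfrsf21, Tnfrsf26, Tnfsf11 and Tnfsf14. The number of DEGs higher was 6 without Sham replicate 1, without Sham replicate 2 or without SCI + SCS replicate 1, fits in which the share of all genes was not computed.

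**Figure D2:**
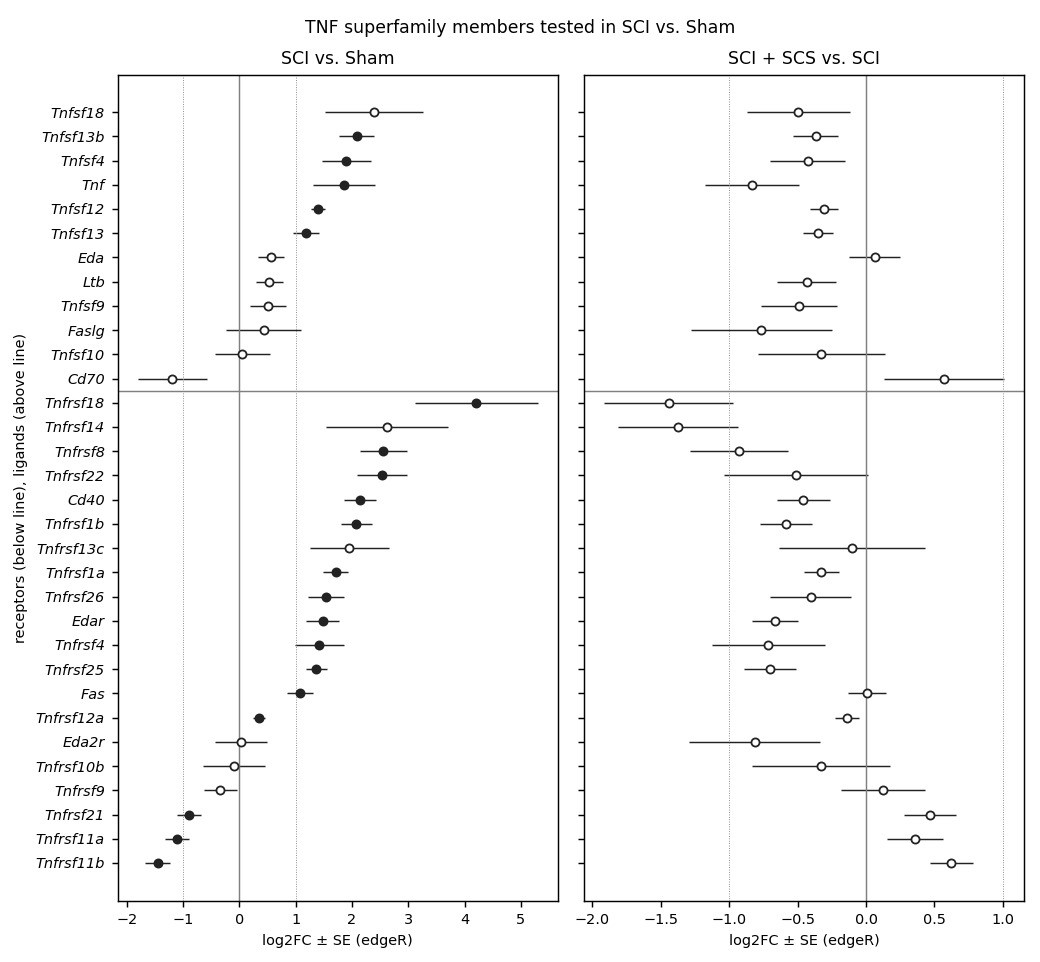
Log2FC with its standard error from edgeR for the 32 members tested in SCI vs. Sham (left) and for the same genes in SCI + SCS vs. SCI (right), with ligands above and receptors below the line. Filled points passed an adjusted p under 0.05, dotted lines mark a log2FC of 1 and -1, and on the left 17 members lie to the right and 3 to the left of 0 with filled points, while on the right every point is open.

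TNF itself was a rare transcript. Tnf (ENSRNOG00000070745 at chr20:3622011-3623794, plus strand; coordinates throughout follow the mRatBN7.2 build of the deposited files unless another is named) encodes the founding cytokine of the family. It was at 0.0626, 0.204 and 0.276 CPM in the Sham libraries, 0.735, 0.766 and 0.521 CPM in the SCI libraries and 0.295, 0.425 and 0.407 CPM in the SCI + SCS libraries. Each SCI library stood above every Sham and every SCI + SCS library. Its log2FC was 1.85 ± 0.55 (SE) in SCI vs. Sham, with an adjusted p of 0.0300 in edgeR's test. These values rest on 4 to 24 counts in each Sham library and 36 to 58 in each SCI library. The call was lost without Sham replicate 2 or without any 1 of the 3 SCI libraries, with an adjusted p of 0.0586 to 0.0874, and the log2FC then ranged from 1.75 to 2.004. Between the 2 injured groups the log2FC of Tnf was -0.83 ± 0.35, which missed the threshold (unadjusted p = 0.0468, adjusted p = 0.201 in edgeR's test). In SCI + SCS vs. Sham it was 1.03 ± 0.54, with an adjusted p of 0.183 in the same test.

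Both TNF receptors rose with injury. Tnfrsf1a (ENSRNOG00000031312 at chr4:158150820-158163591, plus strand), the broadly expressed death domain receptor, was at 19.6, 26.4 and 36.1 CPM in the Sham libraries, 79.2, 94.7 and 98.3 CPM in the SCI libraries and 80.5, 73.2 and 62.1 CPM in the SCI + SCS libraries. The SCI and SCI + SCS libraries lay above all Sham libraries and overlapped each other. Its log2FC was 1.71 ± 0.22 in SCI vs. Sham (edgeR adjusted p = 0.00221), -0.33 ± 0.13 in SCI + SCS vs. SCI (adjusted p = 0.182) and 1.40 ± 0.22 in SCI + SCS vs. Sham (adjusted p = 0.00847). Tnfrsf1b (ENSRNOG00000016575 at chr5:157070642-157104206, minus strand), the TRAF-binding receptor found mainly on immune and glial cells, was at 3.98, 6.53 and 7.94 CPM in the Sham libraries, 20.6, 27.9 and 30.4 CPM in the SCI libraries and 20.1, 18.2 and 13.96 CPM in the SCI + SCS libraries. The 3 groups did not overlap, with SCI + SCS in between, although SCI + SCS replicate 1 lay close to SCI replicate 1. Its log2FC was 2.08 ± 0.28 in SCI vs. Sham (edgeR adjusted p = 0.00236) and 1.51 ± 0.27 in SCI + SCS vs. Sham (adjusted p = 0.0113). Between the injured groups it was -0.58 ± 0.19, with an adjusted p of 0.129 in edgeR and 0.0338 in DESeq2. Per gene length, Tnfrsf1a at 33.3 ± 6.34 FPKM in SCI stood well above Tnfrsf1b at 3.88 ± 1.12 FPKM and Tnf at 0.396 ± 0.0820 FPKM.

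**Figure D3:**
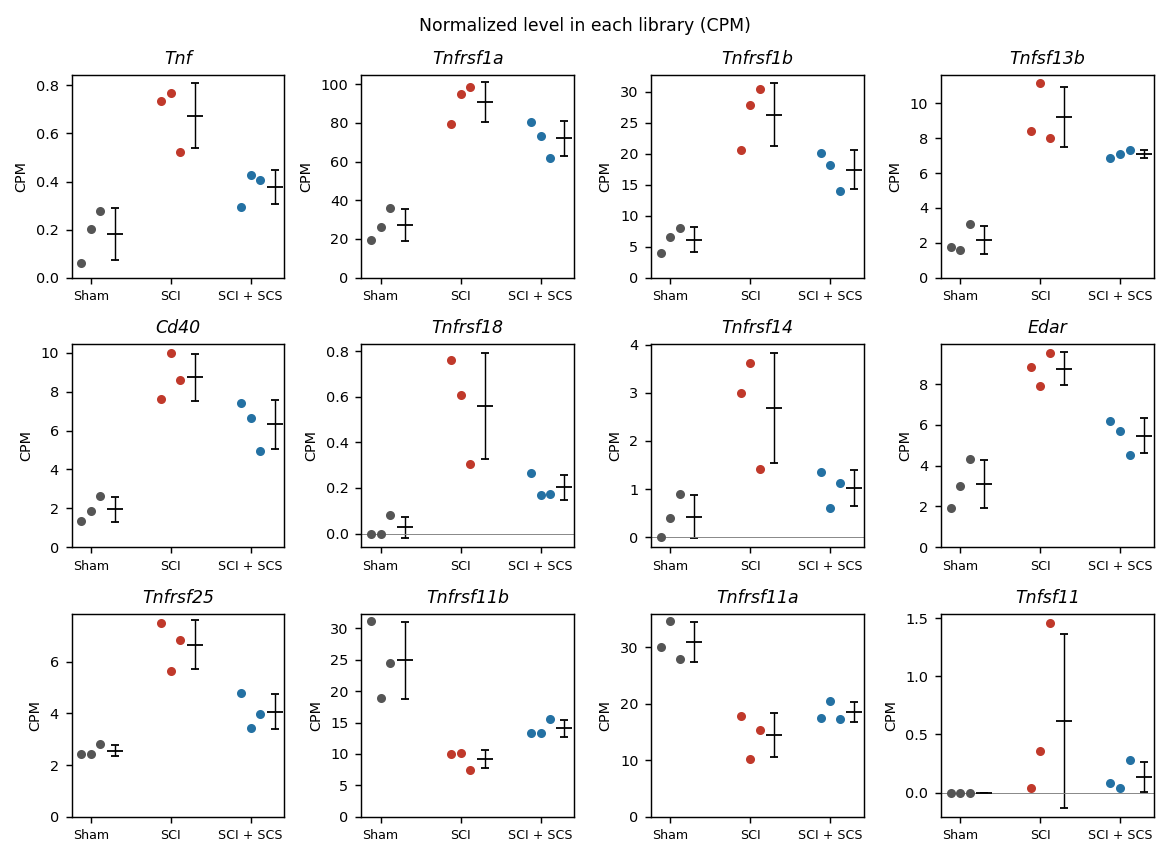
CPM of 12 members in each library on linear axes, with 1 point per rat and the group mean with SD beside it (n = 3). Tnf, Tnfrsf1b, Tnfsf13b, Cd40, Tnfrsf18, Tnfrsf14, Edar and Tnfrsf25 show all SCI + SCS libraries below every SCI library, and Tnfrsf11b shows the reverse order. In Tnfrsf1a, Tnfrsf11a and Tnfsf11 these groups overlap, and in Tnfsf11 a single SCI library sets the mean.

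The lymphotoxins and LIGHT were scarcer or changed less. Ltb, which encodes the membrane subunit of lymphotoxin, was at 2.46 ± 0.449 CPM in Sham (SD, n = 3), 3.60 ± 0.774 CPM in SCI and 2.65 ± 0.252 CPM in SCI + SCS, and its log2FC of 0.53 ± 0.25 in SCI vs. Sham missed the threshold (edgeR adjusted p = 0.116). Lta, the soluble lymphotoxin gene, had 0 to 10 counts in any library. Tnfsf14, the gene of LIGHT, had 0, 0 and 0 counts in the Sham libraries, 34, 7 and 29 in the SCI libraries and 12, 7 and 14 in the SCI + SCS libraries. It was thus undetected in Sham and present in all 6 injured libraries. Against a floor of 3 counts in each Sham library, its mean level was at least 8.35-fold higher in SCI and at least 4.28-fold higher in SCI + SCS. It had too few counts for edgeR's test against Sham, whereas DESeq2 gave an adjusted p of 7.59e-05 in SCI vs. Sham.

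Tnfrsf14 (ENSRNOG00000013820 at chr5:165484262-165493703, minus strand), which encodes HVEM, a receptor of LIGHT, was at 0, 0.386 and 0.886 CPM in the Sham libraries, 3.005, 3.63 and 1.42 CPM in the SCI libraries and 1.35, 0.610 and 1.13 CPM in the SCI + SCS libraries. Every SCI library stood above all libraries of the other groups, and Sham replicate 1 held 0 counts. Its log2FC of 2.63 ± 1.09 in SCI vs. Sham had an adjusted p of 0.0845 in edgeR and 0.0263 in DESeq2. Without Sham replicate 1 the log2FC was 2.07, with an edgeR adjusted p of 0.0361. No other fit that left out 1 library passed, and over all of them the adjusted p reached 0.196 and the log2FC 3.70. Compared with SCI, SCI + SCS had a log2FC of -1.38 ± 0.44, with an adjusted p of 0.128 in edgeR and 0.0237 in DESeq2. Of 4 receptors of the wider family that carry no Tnfrsf symbol and are not counted among the members, 2 rose in SCI vs. Sham, 1 fell and 1 did not pass the test, beside 24.3% of all genes higher and 25% lower. Ltbr, which encodes the receptor that LIGHT shares with lymphotoxin, rose with a log2FC of 1.42 ± 0.19 (edgeR adjusted p = 0.00241), as did Cd27, which encodes the receptor of CD70 on T cells, with 2.35 ± 0.65 (adjusted p = 0.0232). Relt fell with -0.74 ± 0.18 (edgeR adjusted p = 0.0149), and Ngfr, the gene of the low-affinity neurotrophin receptor, had a log2FC of 0.18 ± 0.86 (adjusted p = 0.874).

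Besides Tnfrsf1a, the death receptors comprised Fas, Tnfrsf10b, Tnfrsf21 and Tnfrsf25, of which Fas and Tnfrsf25 rose in SCI vs. Sham, Tnfrsf21 fell and Tnfrsf10b did not pass the test. These 2 of 4 higher and 1 of 4 lower stand beside 24.3% and 25% of all genes. Of their ligands, Faslg and Tnfsf10 were tested and did not pass, and Tnfsf15 had too few counts. Fas (ENSRNOG00000019142 at chr1:231798960-231819290, plus strand), the receptor of Fas ligand, was at 2.58 ± 0.639 CPM in Sham, 5.48 ± 0.365 CPM in SCI and 5.47 ± 0.163 CPM in SCI + SCS. Its log2FC was 1.07 ± 0.23 in SCI vs. Sham (edgeR adjusted p = 0.00988) and 1.09 ± 0.21 in SCI + SCS vs. Sham (adjusted p = 0.0139), and the 2 injured groups overlapped, with a log2FC of 0.01 ± 0.14 between them. Without Sham replicate 2, Fas missed the threshold against Sham in the stimulated group (edgeR adjusted p = 0.0531). Its ligand Faslg was at 0.365 ± 0.261 CPM, 0.501 ± 0.149 CPM and 0.294 ± 0.180 CPM, with overlapping groups in each comparison and an edgeR adjusted p of 0.621 in SCI vs. Sham. Tnfsf10, the gene of TRAIL, and its receptor Tnfrsf10b had log2FC values of 0.05 ± 0.49 and -0.10 ± 0.55 in SCI vs. Sham (edgeR adjusted p = 0.941 and 0.895).

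Tnfrsf25 (ENSRNOG00000021814 at chr5:162622075-162626341, plus strand) encodes death receptor 3, whose ligand is the product of Tnfsf15. It was at 2.43, 2.44 and 2.80 CPM in the Sham libraries, 7.49, 5.63 and 6.83 CPM in the SCI libraries and 4.77, 3.43 and 3.99 CPM in the SCI + SCS libraries. The groups did not overlap, with SCI + SCS in between and the Sham libraries close together. The log2FC was 1.36 ± 0.19 in SCI vs. Sham (edgeR adjusted p = 0.00243) and 0.67 ± 0.19 in SCI + SCS vs. Sham (adjusted p = 0.0369). The second of these was lost without either of the first 2 Sham libraries or without any 1 of the SCI + SCS libraries, with edgeR adjusted p values of 0.0536 to 0.115. The SCI + SCS vs. SCI log2FC was -0.70 ± 0.19, with an adjusted p of 0.105 in edgeR and 0.0109 in DESeq2. Tnfsf15 was all but absent, with 5, 0 and 0 counts in the Sham libraries, 0, 0 and 9 in the SCI libraries and 6, 0 and 5 in the SCI + SCS libraries.

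Tnfrsf21 (ENSRNOG00000011517 at chr9:17879156-17954085, minus strand), the gene of death receptor 6, is known for its expression in neurons and oligodendrocyte lineage cells. It was at 106, 105 and 81.4 CPM in the Sham libraries, 60.1, 61.4 and 37.98 CPM in the SCI libraries and 64.2, 80.01 and 74.97 CPM in the SCI + SCS libraries. All SCI libraries lay below all libraries of the other groups, and SCI replicate 3 was the lowest. The gene fell with a log2FC of -0.89 ± 0.22 in SCI vs. Sham (edgeR adjusted p = 0.0155), and without Sham replicate 2 the adjusted p was 0.0524. Its log2FC was 0.47 ± 0.19 in SCI + SCS vs. SCI (unadjusted p = 0.0459, adjusted p = 0.200 in edgeR) and -0.41 ± 0.14 in SCI + SCS vs. Sham (adjusted p = 0.0616). Of the neuron markers, 10 of 10 fell in SCI vs. Sham, and of the oligodendrocyte markers 7 of 8, beside 25% of all genes. Their median log2FC values were -2.30 and -1.23. The part of these markers in the Tnfrsf21 result was not tested.

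Both receptors of the RANK axis were lower after injury, while their ligand was detected in the injured cord only. Tnfrsf11a (ENSRNOG00000015615 at chr13:21928408-21986695, plus strand) encodes RANK, the signaling receptor known from osteoclasts. It was at 30.1, 34.8 and 27.9 CPM in the Sham libraries, 17.9, 10.2 and 15.4 CPM in the SCI libraries and 17.6, 20.5 and 17.4 CPM in the SCI + SCS libraries. All Sham libraries stood above all injured libraries, and SCI replicate 2 was the lowest. It fell with a log2FC of -1.11 ± 0.22 in SCI vs. Sham (edgeR adjusted p = 0.00703) and -0.74 ± 0.12 in SCI + SCS vs. Sham (adjusted p = 0.00901). Between the injured groups, which overlapped, its log2FC was 0.36 ± 0.21, with an adjusted p of 0.335.

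Tnfrsf11b (ENSRNOG00000008336 at chr7:85566520-85576400, minus strand) encodes osteoprotegerin, the soluble decoy receptor of RANK ligand, which also binds TRAIL. It was at 31.2, 18.98 and 24.5 CPM in the Sham libraries, 9.94, 10.1 and 7.51 CPM in the SCI libraries and 13.3, 13.3 and 15.6 CPM in the SCI + SCS libraries. The 3 groups did not overlap, and SCI + SCS stood between SCI and Sham. The log2FC was -1.46 ± 0.22 in SCI vs. Sham (edgeR adjusted p = 0.00322) and -0.82 ± 0.19 in SCI + SCS vs. Sham (adjusted p = 0.0218). The second value missed the threshold without SCI + SCS replicate 1 (edgeR adjusted p = 0.0829) or replicate 2 (adjusted p = 0.0758). In SCI + SCS vs. SCI the log2FC was 0.62 ± 0.16, with an adjusted p of 0.0958 in edgeR, the smallest of the 34 members tested, and of 0.00756 in DESeq2.

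Tnfsf11, the gene of RANK ligand, had 0, 0 and 0 counts in the Sham libraries, 3, 25 and 101 in the SCI libraries and 6, 3 and 18 in the SCI + SCS libraries. None of the Sham libraries held a count, all 6 injured libraries did, and SCI replicate 3 held most of them. Against a floor of 3 counts in each Sham library, the mean was at least 16.3-fold higher in SCI and at least 3.59-fold higher in SCI + SCS. Each bound depends on 1 library, being 5.18-fold without SCI replicate 3 and 1.67-fold without SCI + SCS replicate 3. The gene was too low for edgeR's test against Sham, and DESeq2 gave an adjusted p of 6.23e-05 in SCI vs. Sham. The 2 injured groups overlapped, with a log2FC of -2.17 ± 1.21 and an adjusted p of 0.317 in edgeR's test.

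Per gene length, TWEAK was the most abundant ligand in all 3 groups. Tnfsf12 (ENSRNOG00000045670 at chr10:54403870-54413213, minus strand), the gene of this cytokine of tissue repair, was at 22.9, 26.5 and 31.3 CPM in the Sham libraries, 70.6, 73.3 and 69.7 CPM in the SCI libraries and 64.7, 54.7 and 52.1 CPM in the SCI + SCS libraries. The groups did not overlap, and the 3 SCI libraries lay within a narrow range. Its log2FC was 1.39 ± 0.13 in SCI vs. Sham (edgeR adjusted p = 0.00120), 1.09 ± 0.14 in SCI + SCS vs. Sham (adjusted p = 0.00519) and -0.31 ± 0.10 in SCI + SCS vs. SCI (adjusted p = 0.134; DESeq2, 0.0507). The gene ends next to Tnfsf13 on the same strand, so that reads from a transcript that runs across both could be counted for either.

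The TWEAK receptor gene Tnfrsf12a, which encodes Fn14, stood on 2 rows of the count table with the same identifier and coordinates (chr10:12689890-12709045, minus strand), and the rows gave different answers. The row with the higher total was at 20.5, 18.2 and 19.4 CPM in the Sham libraries, 25.2, 23.3 and 26.5 CPM in the SCI libraries and 22.4, 22.3 and 22.9 CPM in the SCI + SCS libraries. In this row, the SCI libraries stood above the others by a small margin, with a log2FC of 0.35 ± 0.10 in SCI vs. Sham (edgeR adjusted p = 0.0285), which missed the threshold without Sham replicate 2 or 3 or without SCI replicate 1 or 3 (adjusted p of 0.0664 to 0.118). The other row was at 8.43, 6.57 and 6.43 CPM in the Sham libraries, 21.5, 16.9 and 24.3 CPM in the SCI libraries and 16.4, 15.03 and 17.6 CPM in the SCI + SCS libraries. There the log2FC was 1.53 ± 0.19 in SCI vs. Sham (edgeR adjusted p = 0.00201), 1.20 ± 0.15 in SCI + SCS vs. Sham (adjusted p = 0.00472) and -0.34 ± 0.15 in SCI + SCS vs. SCI (adjusted p = 0.218).

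Of the counts on both Tnfrsf12a rows together, the other row took 24.9 to 29.1% in Sham, 42.0 to 47.8% in SCI and 40.2 to 43.5% in SCI + SCS. The listed span of 19156 bases is far longer than the RefSeq gene of 1997 bases in the GRCr8 build and encloses 2 genes of the opposite strand, Hcfc1r1 and Bicdl2. Lengths implied by dividing counts by FPKM differed between the rows, with a median of 2641 bases for the row with the higher total and 1312 bases for the other. Which row holds the reads of the Fn14 transcript cannot be told from the table, since the strand used for counting is not given in the sources used here.

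**Figure D4:**
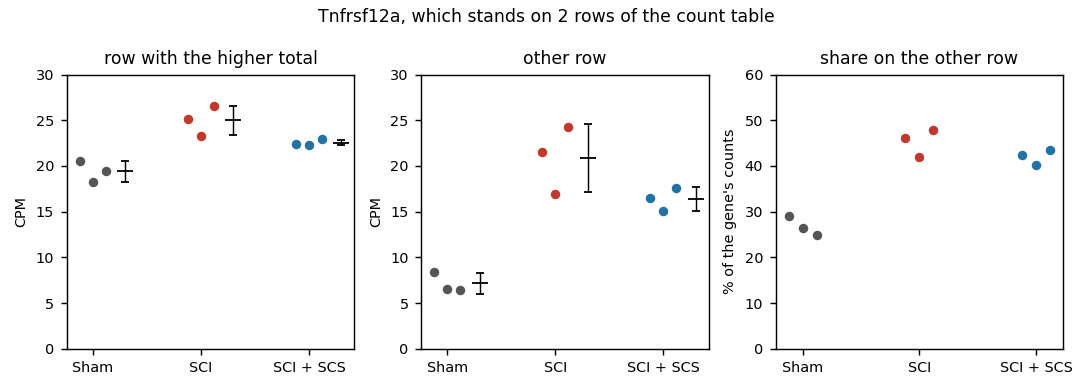
Tnfrsf12a on its 2 rows of the count table in CPM per library (left and center, with the group mean and SD, n = 3) and the share of the summed counts on the other row in percent (right). The row with the higher total differs little between the groups, while on the other row all injured libraries lie above all Sham libraries.

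Both B cell factors rose with injury, and their receptors were sparse. Tnfsf13b (ENSRNOG00000014464 at chr16:79462402-79492693, minus strand), the gene of the B cell survival factor BAFF, was at 1.77, 1.59 and 3.08 CPM in the Sham libraries, 8.42, 11.2 and 8.02 CPM in the SCI libraries and 6.87, 7.08 and 7.31 CPM in the SCI + SCS libraries. The groups did not overlap, and the SCI + SCS libraries lay just under the lowest SCI library. The log2FC was 2.08 ± 0.30 in SCI vs. Sham (edgeR adjusted p = 0.00293), 1.73 ± 0.27 in SCI + SCS vs. Sham (adjusted p = 0.00827) and -0.37 ± 0.16 in SCI + SCS vs. SCI (adjusted p = 0.225). Tnfsf13 (ENSRNOG00000014171 at chr10:54400065-54403042, minus strand), the gene of APRIL, was at 11.7, 15.4 and 22.3 CPM in the Sham libraries, 35.3, 38.8 and 39.2 CPM in the SCI libraries and 32.8, 29.6 and 25.8 CPM in the SCI + SCS libraries. Here too the groups did not overlap. Its log2FC was 1.18 ± 0.22 in SCI vs. Sham (edgeR adjusted p = 0.00644) and -0.35 ± 0.11 in SCI + SCS vs. SCI (adjusted p = 0.122 in edgeR, 0.0430 in DESeq2). Against Sham, SCI + SCS had 0.84 ± 0.24 (edgeR adjusted p = 0.0366), and the call was lost in each of 5 fits that left out 1 library, all but that without Sham replicate 3 (adjusted p of 0.0549 to 0.1203).

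Tnfrsf13c, the gene of the BAFF receptor, was at 0.423, 0.341 and 1.21 CPM in the Sham libraries, 3.73, 3.15 and 0.854 CPM in the SCI libraries and 1.57, 3.19 and 2.41 CPM in the SCI + SCS libraries. SCI replicate 3 fell within the Sham range, and the log2FC of 1.96 ± 0.70 in SCI vs. Sham missed the threshold (adjusted p = 0.0566 in edgeR, 0.0107 in DESeq2), whereas that of 1.86 ± 0.55 in SCI + SCS vs. Sham passed (edgeR adjusted p = 0.0423). The latter was lost without Sham replicate 1 or 2 or any 1 of the SCI + SCS libraries (edgeR adjusted p of 0.0744 to 0.121). Summed B cell markers were at 1.38 to 1.86 CPM in Sham, 4.37 to 19.98 CPM in SCI and 5.32 to 10.03 CPM in SCI + SCS, and their part in the result was not tested. Tnfrsf13b, which encodes TACI, a receptor shared by both factors, had 0 to 12 counts in any library.

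Receptors of T cell and antigen-presenting cell co-stimulation made up part of the increase. Of the 5 co-stimulatory receptors, 4 were DEGs higher in SCI vs. Sham, and of the 4 ligands tested 1 was, beside 13.4% of all genes. Cd40 (ENSRNOG00000018488 at chr3:153790449-153805534, plus strand), the receptor through which T cells license B cells and macrophages, was at 1.36, 1.86 and 2.65 CPM in the Sham libraries, 7.63, 10.02 and 8.60 CPM in the SCI libraries and 7.41, 6.65 and 4.93 CPM in the SCI + SCS libraries. All SCI libraries stood above all SCI + SCS libraries, which stood above all Sham libraries. Its log2FC was 2.14 ± 0.28 in SCI vs. Sham (edgeR adjusted p = 0.00217), 1.70 ± 0.29 in SCI + SCS vs. Sham (adjusted p = 0.00988) and -0.46 ± 0.20 in SCI + SCS vs. SCI (adjusted p = 0.210). Its ligand Cd40lg had 0 to 8 counts in any library.

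Tnfrsf18 (ENSRNOG00000022012 at chr5:166618969-166622353, plus strand), the gene of GITR, a receptor of regulatory and activated T cells, had 0, 0 and 7 counts in the Sham libraries, 60, 43 and 21 in the SCI libraries and 19, 12 and 11 in the SCI + SCS libraries. These corresponded to 0, 0 and 0.0805 CPM in the Sham libraries, 0.761, 0.610 and 0.304 CPM in the SCI libraries and 0.267, 0.170 and 0.172 CPM in the SCI + SCS libraries. No Sham library reached any injured library, and SCI + SCS stood below SCI. The log2FC of 4.21 ± 1.09 in SCI vs. Sham (edgeR adjusted p = 0.0193) was the largest among the 32 members tested in edgeR but rests on Sham counts of 0 or near it. It missed the threshold without Sham replicate 2 or without SCI replicate 1 or 2 (edgeR adjusted p of 0.0542 to 0.0549), and the estimate rose to 8.37 without Sham replicate 3, the only Sham library with counts. In SCI + SCS vs. SCI the log2FC was -1.44 ± 0.47 (unadjusted p = 0.0182, adjusted p = 0.134 in edgeR). GITR ligand, Tnfsf18, was at 0.0951 ± 0.0869 CPM, 0.529 ± 0.144 CPM and 0.373 ± 0.0888 CPM in Sham, SCI and SCI + SCS (SD, n = 3), with a log2FC of 2.39 ± 0.87 in SCI vs. Sham and an adjusted p of 0.0584 in edgeR and 0.0266 in DESeq2.

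Tnfrsf8 (ENSRNOG00000016782 at chr5:157123185-157168421, minus strand), the gene of CD30, a marker of activated lymphocytes, was at 0.345, 0.250 and 0.242 CPM in the Sham libraries, 1.41, 1.08 and 2.52 CPM in the SCI libraries and 0.926, 0.822 and 0.860 CPM in the SCI + SCS libraries. The groups did not overlap, and SCI replicate 3 was the highest. Its log2FC was 2.56 ± 0.43 in SCI vs. Sham (edgeR adjusted p = 0.00422), 1.65 ± 0.30 in SCI + SCS vs. Sham (adjusted p = 0.0114; 0.0508 without Sham replicate 2) and -0.93 ± 0.36 in SCI + SCS vs. SCI (adjusted p = 0.176). The gene of CD30 ligand, Tnfsf8, had 27, 9 and 18 counts in the Sham libraries, 0, 4 and 7 in the SCI libraries and 21, 4 and 14 in the SCI + SCS libraries. The highest SCI library stood below the lowest Sham library. The gene was too low for edgeR's test in SCI vs. Sham, where DESeq2 gave an adjusted p of 0.124.

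Tnfsf4 (ENSRNOG00000002968 at chr13:73723329-73746788, plus strand), the gene of OX40 ligand, was at 0.470, 0.556 and 1.15 CPM in the Sham libraries, 2.47, 3.77 and 1.997 CPM in the SCI libraries and 2.17, 1.999 and 1.92 CPM in the SCI + SCS libraries. All injured libraries stood above all Sham libraries. Its log2FC was 1.90 ± 0.44 in SCI vs. Sham (edgeR adjusted p = 0.0129; 0.0521 without Sham replicate 2), 1.48 ± 0.37 in SCI + SCS vs. Sham (adjusted p = 0.0270) and -0.42 ± 0.27 in SCI + SCS vs. SCI (adjusted p = 0.386). In the stimulated group, the call against Sham was lost without Sham replicate 1 or 2 or any 1 of the SCI + SCS libraries (edgeR adjusted p of 0.0542 to 0.0909). The OX40 gene Tnfrsf4 was at 0.474 ± 0.0277 CPM in Sham, 1.28 ± 0.591 CPM in SCI and 0.776 ± 0.111 CPM in SCI + SCS. It had a log2FC of 1.42 ± 0.44 in SCI vs. Sham (edgeR adjusted p = 0.0344), and this call was lost in every fit that left out 1 library except that without SCI replicate 3 (adjusted p of 0.0770 to 0.105).

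The 4-1BB pair and CD70 did not pass in any comparison in edgeR or DESeq2. Tnfrsf9, the 4-1BB gene, had a log2FC of -0.34 ± 0.29 in SCI vs. Sham and its ligand Tnfsf9 one of 0.51 ± 0.32 (edgeR adjusted p = 0.360 and 0.226). Cd70 was at 0.649 ± 0.430 CPM in Sham, 0.284 ± 0.104 CPM in SCI and 0.422 ± 0.115 CPM in SCI + SCS, with a log2FC of -1.20 ± 0.61 in SCI vs. Sham (edgeR adjusted p = 0.147). Of the T and NK cell markers, 6 of the 9 tested rose in SCI vs. Sham, beside 24.3% of all genes. In SCI + SCS vs. SCI 0 of 10 passed, beside 0.00566% of all genes higher and 0% lower. The median log2FC values of these markers were 2.65 and -1.44. Their part in the results on co-stimulation was not tested.

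Edar (ENSRNOG00000028598 at chr20:26587839-26666494, minus strand) encodes the ectodysplasin receptor, known from the development of hair, teeth and glands. It was at 1.94, 3.02 and 4.33 CPM in the Sham libraries, 8.82, 7.90 and 9.54 CPM in the SCI libraries and 6.20, 5.70 and 4.52 CPM in the SCI + SCS libraries. The groups did not overlap, with SCI + SCS between Sham and SCI. The log2FC was 1.48 ± 0.29 in SCI vs. Sham (edgeR adjusted p = 0.00750) and -0.67 ± 0.17 in SCI + SCS vs. SCI (adjusted p = 0.0959 in edgeR, 0.00462 in DESeq2). For SCI + SCS vs. Sham it was 0.83 ± 0.31, with an edgeR adjusted p of 0.0802. The adjusted p became 0.0240 without Sham replicate 3, missed the threshold in every other fit that left out 1 library, and reached 0.211. Its ligand Eda was at 4.17 ± 0.714 CPM, 6.24 ± 1.26 CPM and 6.48 ± 0.450 CPM in Sham, SCI and SCI + SCS. Eda missed the threshold in SCI vs. Sham (log2FC 0.56 ± 0.23, edgeR adjusted p = 0.0778) and passed in SCI + SCS vs. Sham (0.64 ± 0.17, adjusted p = 0.0334), where the call was lost in every fit that left out 1 library except that without Sham replicate 3 (adjusted p of 0.0583 to 0.107). Eda2r, the receptor of the second ectodysplasin isoform, had 10 to 29 counts in any library and passed in no comparison.

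Tnfrsf22 and Tnfrsf26 lie side by side on chromosome 1, and the mouse counterpart of the first is known as a decoy receptor of TRAIL. Tnfrsf22 (ENSRNOG00000070689 at chr1:198840453-198856309, minus strand) was at 0.204, 0.102 and 0.219 CPM in the Sham libraries, 0.786, 0.922 and 1.39 CPM in the SCI libraries and 0.870, 0.255 and 1.03 CPM in the SCI + SCS libraries. All SCI libraries stood above all Sham libraries, while SCI + SCS replicate 2 lay near the Sham range. Its log2FC was 2.54 ± 0.45 in SCI vs. Sham (edgeR adjusted p = 0.00496) and 2.04 ± 0.61 in SCI + SCS vs. Sham (adjusted p = 0.0455). The latter was lost in every fit that left out 1 library except that without SCI + SCS replicate 2 (edgeR adjusted p of 0.0657 to 0.138). Tnfrsf26 had log2FC values of 1.55 ± 0.32, -0.41 ± 0.30 and 1.15 ± 0.37 in SCI vs. Sham, SCI + SCS vs. SCI and SCI + SCS vs. Sham (edgeR adjusted p = 0.00882, 0.443 and 0.0555). Related copies of this pair could share reads, and how the counting treated such reads is not given in the sources used here.

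Several members are neighbors in the genome, and 18 of the 39 lay within 200 kb of another member, in 8 clusters. The clusters held both members that passed the test and members that did not. On chromosome 5, Tnfrsf4 and Tnfrsf18, and likewise Tnfrsf1b and Tnfrsf8, were all DEGs higher in SCI vs. Sham. On chromosome 20, Lta, Tnf and Ltb lie next to one another, of which Tnf alone passed. On chromosome 9, Tnfsf9, Cd70 and Tnfsf14 form another cluster, of which the first 2 did not pass and the last was too low for the test.

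Promoters of the members were searched for the NF-κB consensus, since this factor is the textbook effector of TNF receptor signaling and a known regulator of Tnf. Promoter sequences from RefSeq (GRCr8 build), each with 250 bases before the annotated start and 50 after it, were given for 29 of the 39 members. The consensus, searched on both strands, was found in 5 of the 29 (17.2%) and in 4.18% of all 33469 promoters of the same length. The 5 were Cd70, where it lay past the start, Lta, Ltb, Tnfrsf8 and Tnfsf14. The promoter of Tnf was among the 29 and held no match. Of the 13 promoters given for members that rose in SCI vs. Sham, 1 held it (7.69%), that of Tnfrsf8. The 250 bases before the start are given here for the 4 with a match there. They read 5′ to 3′ on the strand of the gene, with the matched 10 bases in capitals. Of these 4, Tnfrsf8 was a DEG higher in SCI vs. Sham, and Ltb was tested and did not pass. Tnfsf14, with no count in Sham, and Lta had too few counts for edgeR's test in that comparison. A match in letters shows no binding.
Tnfrsf8 (chr5:162451621-162451870, minus strand): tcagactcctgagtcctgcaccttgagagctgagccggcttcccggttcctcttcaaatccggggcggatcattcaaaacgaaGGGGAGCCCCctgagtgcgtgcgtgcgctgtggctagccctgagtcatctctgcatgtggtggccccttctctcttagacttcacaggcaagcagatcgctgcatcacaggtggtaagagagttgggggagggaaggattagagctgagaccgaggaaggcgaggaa
Tnfsf14 (chr9:2160087-2160336, minus strand): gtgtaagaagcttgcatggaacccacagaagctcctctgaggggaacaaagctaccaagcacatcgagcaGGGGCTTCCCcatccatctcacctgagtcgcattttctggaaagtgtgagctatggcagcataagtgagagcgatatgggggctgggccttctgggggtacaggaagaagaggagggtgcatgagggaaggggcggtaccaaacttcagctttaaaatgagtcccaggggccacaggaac
Ltb (chr20:3634055-3634304, minus strand): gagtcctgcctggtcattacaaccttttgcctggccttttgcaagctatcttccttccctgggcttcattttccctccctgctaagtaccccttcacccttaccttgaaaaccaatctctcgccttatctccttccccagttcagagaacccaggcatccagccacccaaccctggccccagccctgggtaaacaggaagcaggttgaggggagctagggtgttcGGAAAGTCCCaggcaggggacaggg
Lta (chr20:3623277-3623526, plus strand): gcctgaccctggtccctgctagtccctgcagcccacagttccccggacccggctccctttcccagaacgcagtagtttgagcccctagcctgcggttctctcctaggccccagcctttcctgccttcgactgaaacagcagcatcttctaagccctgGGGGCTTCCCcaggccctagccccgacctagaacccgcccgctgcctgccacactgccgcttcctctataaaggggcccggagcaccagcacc

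Genes that relay signals of the receptors changed in both directions. Of 29 genes of receptor-proximal signaling, 14 had an adjusted p under 0.05 and were higher in SCI vs. Sham and 3 were lower, in edgeR's test, beside 24.3 and 25% of all genes. The largest increases were in the necroptosis genes Ripk3, which encodes the kinase of that pathway, with a log2FC of 2.91 ± 0.38 (edgeR adjusted p = 0.00220), and Mlkl, which encodes its pore-forming effector, with 2.17 ± 0.44 (adjusted p = 0.00818). The adaptor Traf1 followed with 2.01 ± 0.35 (adjusted p = 0.00509). DEGs lower were Tab3, which encodes a subunit of the TAK1 kinase complex, with a log2FC of -2.38 ± 0.41 (edgeR adjusted p = 0.00482), and Traf3, a restraint on non-canonical NF-κB signaling, with -1.20 ± 0.25 (adjusted p = 0.00957). Of 4 genes for the shedding of ligands and receptors, 3 rose, the largest being Rhbdf2, a partner of the sheddase ADAM17, with 2.17 ± 0.34 (adjusted p = 0.00337). The sheddase Adam17 itself had a log2FC of 0.66 ± 0.14 (edgeR adjusted p = 0.00965).

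In SCI + SCS vs. SCI, 0 of the 29 signaling genes and 0 of the 4 shedding genes had an adjusted p under 0.05 in edgeR's test. At an unadjusted p under 0.05 there were 4 signaling genes and 1 shedding gene, all lower in SCI + SCS, where 10.9% of all genes were. In DESeq2, 3 signaling genes and 1 shedding gene had an adjusted p under 0.05, again all lower, where 5.16% of all genes were. Ripk3, with a log2FC of -0.57 ± 0.13, had an edgeR adjusted p of 0.0854, and Tradd, the adaptor of TNF receptor 1, with -0.59 ± 0.13, one of 0.0872. Of the macrophage markers, 6 of 7 rose in SCI vs. Sham, beside 24.3% of all genes. In SCI + SCS vs. SCI 0 of 7 passed, beside 0.00566% of all genes higher and 0% lower. The median log2FC values of these markers were 3.15 and -0.82. Their part in the results on the family and its signaling genes was not tested.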

How the data were processed

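Poly(A) RNA from 9 rat spinal cords, 3 per group with 1 batch label, was sequenced. Per the labels and methods, the authors trimmed the reads with fastp 0.23.2, and the submitters' processing notes also name HISAT2 2.2.1 and the mRatBN7.2 build. The authors deposited counts per gene, without normalization, and FPKM, which scale counts by gene length and library total. The counting program, its strand setting and its handling of shared reads are not given in the sources used here, and whether counts were derived from coverage was not tested. No 2 libraries were identical.

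Each comparison was fitted on its 6 libraries with edgeR 4.0.16 (R 4.3.3, TMM factors, filterByExpr, quasi-likelihood test). A standard error is the absolute log2FC over the square root of F. P-values were adjusted over all genes tested with the Benjamini-Hochberg method. Alternatives were DESeq2 1.42.0, limma 3.58.1 on log2(FPKM + 1) and log2(FPKM + 0.1) for genes with a mean of at least 0.1 FPKM, other filters and size factors, the replicate block, removal of muscle and adipocyte genes, and leaving out each library. Alternatives chosen after seeing the data were the other Tnfrsf12a row, DESeq2 on all 9 libraries, the muscle level as a covariate and unadjusted p-values. In counts simulated for SCI vs. Sham, edgeR recovered 83.0% of 200 genes changed 4-fold, and in those for SCI + SCS vs. SCI 88.5%. The simulated spread followed the trend over all genes and left out each gene's own spread. Smaller changes, such as the median log2FC of -0.43 over the members in SCI + SCS vs. SCI, were not simulated. The recovered shares therefore do not show how many such changes edgeR would miss.

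The members and lists were chosen with earlier results of these data known. Of 2 rows with the symbol Tnfrsf12a, the one with the higher total was the member. Certain receptors of the family are not reported here. Values in every library were given for members with an unadjusted p under 0.05 in SCI + SCS vs. SCI, for the 8 higher and up to 5 lower DEGs with the largest change in SCI vs. Sham, and for Tnf and its receptors. For their known partners, at least group means or counts were given, and other values were added where a member was described. P-values measure the spread between rats, 3 per group. Precision is limited by counting error in low genes, for which 3 counts were taken as the floor. Promoters were scanned in RefSeq sequences of the GRCr8 build, and protein sequences were not used here.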

Additional observations from a re-analysis of the deposited data

How the results depend on the processing

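No log2FC of a named member changed its sign under any alternative for which it was recomputed. The 16 DEGs higher and 2 lower in SCI vs. Sham became 6 and 1 with log2(FPKM + 1), a scale that compresses changes of low genes, and 13 to 17 and 2 to 3 when each library was left out. The 0 DEGs lower in SCI + SCS vs. SCI became 2 with unadjusted p-values and 1 with DESeq2, and stayed 0 without each library in turn. The 10 DEGs higher in SCI + SCS vs. Sham became 4 with log2(FPKM + 1) and 6 to 14 when each library was left out, and without the fold change threshold 2 members were lower. The shares of all genes that were DEGs with log2(FPKM + 1), with unadjusted p-values or without single libraries were not computed. Calls lost by the family alone and calls lost by all genes alike therefore cannot be told apart. The median log2FC of 1.38 in SCI vs. Sham was 1.13 with at least 10 counts in every library and 0.36 with log2(FPKM + 1). The median of -0.43 in SCI + SCS vs. SCI was -0.37 with DESeq2, -0.38 with DESeq2 on all 9 libraries and with no filter, -0.57 with the muscle level as a covariate, -0.20 with log2(FPKM + 1), -0.32 with log2(FPKM + 0.1) and -0.51 to -0.29 without each library. The median of 0.83 in SCI + SCS vs. Sham was 1.03 with DESeq2 and with no filter, 1.002 with DESeq2 on all 9 libraries, 0.70 with at least 10 counts, 0.24 with log2(FPKM + 1), 0.65 with log2(FPKM + 0.1) and 0.65 to 1.13 without each library. The cause of the other shifts was not tested. Calls of single members were followed only for those that passed in the comparison or met the rule for values in every library. Over all alternatives, these lost a call 27 times and gained one 6 times in SCI vs. Sham. They lost one 56 times and gained one 8 times in SCI + SCS vs. Sham, and gained one 8 times in SCI + SCS vs. SCI. Gains of other members were not counted here.

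Replicate numbers are shared between the groups, and the deviations of same-numbered libraries had correlations of -0.33 to 0.24. Libraries with different numbers were not set beside them, so that these values do not decide whether the numbers mark pairs. The main fits did not take them as pairs. With the replicate block, 13 members were DEGs higher in SCI vs. Sham, 0 were DEGs in SCI + SCS vs. SCI, and 2 were DEGs higher in SCI + SCS vs. Sham. The shares of all genes under the block were not computed. Tnf, Tnfrsf18 and Tnfrsf4 missed the threshold in SCI vs. Sham under the block, with an edgeR adjusted p of 0.0618, 0.0544 and 0.0729. With the muscle level as a covariate, Tnf, Tnfrsf18, Tnfrsf21, Tnfrsf4 and Tnfrsf12a missed the threshold in SCI vs. Sham (edgeR adjusted p of 0.0635 to 0.157). At this depth, 5 to 7 members had too few counts for edgeR's test, depending on the comparison.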
